A study of Mus musculus with 2 samples.

Results

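The scavenger receptor genes described here are Marco, Msr1, Cd36, Scarb1, Cd68, Mrc1, Olr1 and Stab1. They were chosen by symbol as macrophage receptors for modified lipoproteins, particles and glycans, and all 8 were found among the 16218 genes analysed. The RNA came from cultured C57BL/6J mouse macrophages, grown from bone marrow for 5 days with 10% L929 supernatant and 10% FBS and then exposed for 3 h to LPS at 10 ng/ml. The WT cells carried Lyz2-Cre alone. The TKO cells were homozygous null (-/-) for the cluster mir-106a~363 and for mir-106b~25, carried the mir-17~92 cluster as flox/flox, and had Lyz2-Cre as well, so that both groups shared the recombinase and the LPS, and neither was an unstimulated group. Lyz2-Cre acts in cells that express lysozyme 2, a myeloid gene. The floxed cluster is therefore removed only where the recombinase has acted, whereas the other clusters are labelled as null alleles. Each genotype had 1 library, so no test between genotypes was possible, and genotype cannot be told apart from any other difference between the 2 cultures. "Higher" and "lower" below describe these 2 libraries.

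Scavenger receptors are a functional group of cell-surface and endosomal proteins rather than 1 gene family. Macrophages use them to take up oxidised or acetylated low-density lipoprotein, bacteria, dying cells and glycoproteins, and the captured material is usually delivered to lysosomes. Class A receptors (here Marco and Msr1) are trimers with collagen-like stalks. Class B receptors (here Cd36 and Scarb1) span the membrane at both ends, and Olr1 and Mrc1 carry C-type lectin-like domains. MicroRNAs pair through their seed, bases 2 to 8, with sites mostly in 3' UTRs, and pairing usually lowers the messenger RNA or its translation.

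The microRNAs of the clusters targeted in the TKO genotype are shown first, with the seed in capitals; no microRNA level was measured in either library. The 13 mature guide strands examined from these clusters fall into 4 seed families. The miR-17 family has 6 of them, miR-18 and miR-19 have 2 each, and miR-92 has 3. A representative of each follows, 5′ to 3′, from RefSeq (GRCm38.p6).
mmu-miR-17-5p: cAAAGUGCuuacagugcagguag
mmu-miR-18a-5p: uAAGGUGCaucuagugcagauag
mmu-miR-19b-3p: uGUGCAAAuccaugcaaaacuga
mmu-miR-92a-3p: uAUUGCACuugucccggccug

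The longest annotated 3' UTR of each receptor gene (GENCODE M21, GRCm38) was searched on the transcript strand for the 7 bases opposite these seeds: GCACTTT for miR-17, GCACCTT for miR-18, TTTGCAC for miR-19 and GTGCAAT for miR-92. In 4 of the 8 genes there were 5 matches in all, shown with the match in capitals and 8 bases on each side.
Cd36, miR-17 family, chr5:17783084-17783090, minus strand: aaaatcttGCACTTTtattaaaa
Olr1, miR-17 family, chr6:129487116-129487122, minus strand: tccagactGCACTTTtacacaca
Olr1, miR-17 family, chr6:129485418-129485424, minus strand: gtataattGCACTTTtagctcaa
Scarb1, miR-19 family, chr5:125277389-125277395, minus strand: ctgaccagTTTGCACacacactc
Msr1, miR-18 family, chr8:39605691-39605697, minus strand: atcccctgGCACCTTttacctag
The Cd36 match lies in all 5 of its annotated transcripts with a 3' UTR, and both Olr1 matches lie in the 1 such transcript of that gene. The Scarb1 match lies in 2 of 3 transcripts. The Msr1 match lies in 1 of 2, a transcript that ends 21769 bases before the end of the gene. Marco, Cd68, Stab1 and Mrc1 held no match, in 3' UTRs of 121, 158, 134 and 882 bases, against a median of 1402 bases over the 11167 measured genes with an annotated 3' UTR. Of those genes 15.5% held a miR-17 match, 10.4% a miR-18 match, 14.1% a miR-19 match and 8.01% a miR-92 match, and 36.0% held any of them. A match describes letters in a UTR and does not show that a microRNA binds there.

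**Figure D1:**
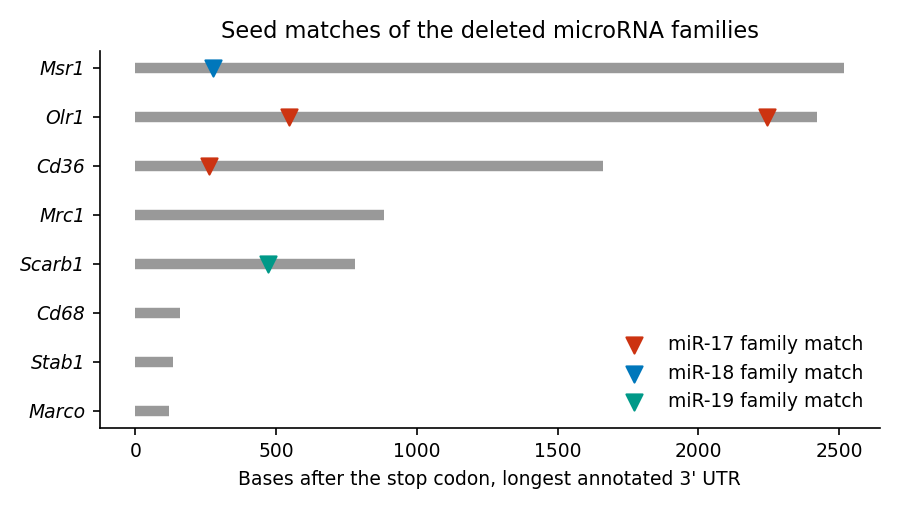
Seed matches in the longest annotated 3' UTR of each receptor gene, with the distance after the stop codon in bases on the horizontal axis. Grey bars are the UTRs and triangles the 5 matches: Olr1 has 2, Cd36, Scarb1 and Msr1 have 1 each, and the short UTRs of Marco (121 bases), Stab1 (134) and Cd68 (158) have none.

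The WT library held 10764519 counts and the TKO library 10836855. Counts are the deposited estimates rounded to whole numbers, CPM is the count per 1000000 counts of the library, and genes whose CPM averaged 1 or more across the libraries were taken as measured. All 8 receptor genes passed, among 11662 genes in all. A ratio between the libraries is a ratio of CPM, with a 95% counting interval in brackets (exact Clopper-Pearson, conditional binomial). Such an interval covers counting error only and not the spread between mice or cultures. All 12 listed macrophage markers were measured, and 0 were 1.5-fold apart, beside 2.98% higher and 5.6% lower of all measured genes. Mpeg1, a macrophage perforin gene and the most abundant of them, had 25966 and 35488 counts and was 1.36-fold higher (1.34 to 1.38), and the list summed to 13939 CPM in WT and 15386 in TKO. Lyz2, the lysozyme 2 gene, had 576 and 676 counts, or 53.5 and 62.4 CPM. Aif1 was 1.47-fold higher (1.19 to 1.83), just short of 1.5-fold. The microRNA genes themselves are not analysed here, and Mir17hg, the host transcript of mir-17~92, had 16 counts in each library, which checks nothing about the deleted part.

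The receptor repertoire was dominated by Cd68 and Msr1 in both genotypes, and 2 genes stood 1.5-fold apart: Marco was higher in the TKO library and Cd36 lower. A gene was counted as apart when its CPM ratio was at least 1.5-fold and its interval excluded equality. By this rule 1 of the 8 was higher, beside 2.98% of all measured genes, and 1 of the 8 was lower, beside 5.6% of all measured genes. The other 6 lay within 1.5-fold. At 2-fold Marco was still counted as higher, beside 1.29% of measured genes, and 0 of the 8 were lower, beside 2.36%. The median log2 ratio of the 8 genes (log2 of TKO over WT, 0.5 CPM added to each) was −0.10, beside −0.04 for all measured genes. Summed over the 8, the counts were 33930 in WT and 32585 in TKO, 0.315% and 0.301% of the libraries.

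Levels were compared between genes as deposited FPKM, which divides by gene length. Cd68, the endosomal and lysosomal glycoprotein macrosialin, was listed at 783.62 FPKM in WT and 862.95 in TKO, within the highest 0.583% and 0.472% of measured genes. Msr1, which encodes the class A receptor for acetylated lipoprotein, followed at 381.59 and 378.80 FPKM. These 2 genes held 54.7% and 26.6% of the 8 genes' summed FPKM in WT, and 58.7% and 25.8% in TKO. Below them the order differed between the libraries. Cd36 stood next at 99.44 FPKM in WT, above Stab1 at 75.60, whereas in TKO Stab1 (70.89) stood above Cd36 (64.45). Mrc1 (38.46 and 33.41) and Scarb1 (27.23 and 27.43) kept the fifth and sixth places. At the bottom, Olr1 (21.88) was above Marco (4.92) in WT, and Marco (17.43) was above Olr1 (15.60) in TKO. With 1 library per genotype no spread is known for these places, so neighbours that exchanged them, Cd36 with Stab1 and Olr1 with Marco, are not ranked.

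**Figure D2:**
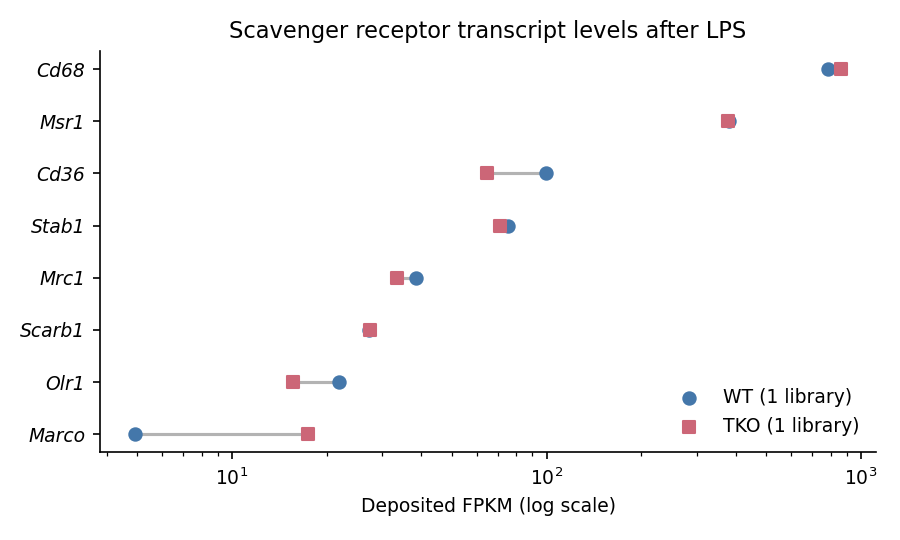
Deposited FPKM (log scale) of the 8 receptor genes, with a circle for the WT library and a square for the TKO library. Levels run from 4.92 (Marco, WT) to 862.95 (Cd68, TKO), and the lines joining the libraries are longest for Marco (4.92 to 17.43) and Cd36 (99.44 to 64.45).

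The class A receptors among the 8 differed from each other. Marco (gene 17167, chromosome 1, 120474538 to 120505024, minus strand), which encodes a collagenous receptor for bacteria and inhaled particles, had 105 counts in WT and 374 in TKO. That is 9.75 and 34.5 CPM, 3.54-fold higher in TKO (2.84 to 4.44). By its ratio of TKO to WT it ranked 45 among the 11662 measured genes, and 18 among the 7935 with a mean of at least 10 CPM. Msr1 (gene 20288, chromosome 8, 39581685 to 39642673, minus strand) had 9130 and 8585 counts, or 848 and 792 CPM, 1.07-fold lower in TKO (1.04 to 1.10). Msr1 stood 77.6-fold above Marco in WT by FPKM and 21.7-fold above it in TKO. Among the 8 genes, Marco was the lesser class A transcript in both libraries, at 0.343% and 1.18% of their summed FPKM.

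The class B receptors among the 8 also differed. Cd36 (gene 12491, chromosome 5, 17781690 to 17888801, minus strand), which encodes a receptor for oxidised lipoprotein and long-chain fatty acids, had 3781 counts in WT and 2455 in TKO. That is 351 and 227 CPM, 1.55-fold lower in TKO (1.47 to 1.63). With edgeR's TMM scaling the difference was 1.4997-fold, so that Cd36 no longer met the 1.5-fold rule and 0 of the 8 genes were counted as lower. Scarb1 (gene 20778, chromosome 5, 125277087 to 125341094, minus strand), which encodes the high-density lipoprotein receptor SR-BI, had 742 and 753 counts, or 68.9 and 69.5 CPM. Its ratio of 1.01 had an interval that included equality (0.910 to 1.12). The FPKM of Cd36 was 3.65 times that of Scarb1 in WT and 2.35 times in TKO.

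The lectin-like receptors were lower in TKO by less than 1.5-fold. Olr1 (gene 108078, chromosome 6, 129485244 to 129507165, minus strand), which encodes the oxidised lipoprotein receptor LOX-1, had 849 and 608 counts, or 78.9 and 56.1 CPM. It was 1.41-fold lower (1.27 to 1.56), so that Olr1 lay just short of the 1.5-fold threshold and Cd36 just past it. Mrc1 (gene 17533, chromosome 2, 14229392 to 14332057, plus strand), which encodes the mannose receptor CD206, had 2225 and 1945 counts and was 1.15-fold lower (1.08 to 1.22). Cd36 and Olr1 were the 2 receptor genes farthest lower, and they were also the 2 with a miR-17 match shown above. Their log2 ratios were −0.63 and −0.49, while the 1729 measured genes with a miR-17 match had a median of 0.01 and those without one −0.05. Marco, the gene farthest higher, held no match of the 4 families in its UTR. Matches and ratios were set side by side with the values known, and no relation between them was tested.

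Of the remaining receptors, Stab1 (gene 192187, chromosome 14, 31139013 to 31168641, minus strand), which encodes the endocytic receptor stabilin-1, had 6585 and 6214 counts and was 1.07-fold lower (1.03 to 1.10). The gene Nt5dc2 overlaps it on the opposite strand, with 617 and 481 counts, and with no strand setting known for the counting, reads of the overlap cannot be told apart. Cd68 (gene 12514, chromosome 11, 69664213 to 69666153, minus strand) had 10513 and 11651 counts and was 1.10-fold higher (1.07 to 1.13). Intervals lay wholly above equality for 2 of the 8 genes, beside 14.1% of measured genes, and wholly below it for 5, beside 20.2%. With TMM scaling 4 lay below, since the Stab1 interval (0.936 to 1.003) then included equality, and the FPKM ratio of Msr1 was 0.993. In the authors' deposited table all of the genes but Scarb1, 7 of 8, had an adjusted value of at most 0.05, beside 25.2% of measured genes. That comparison is also between these 2 libraries, not between replicated conditions. A counting interval narrows as counts rise, and Msr1 and Stab1 excluded equality at 1.07-fold each. The 8 genes averaged 22.1 to 1026 CPM, whereas measured genes begin at 1 CPM. The shares of measured genes given here were not matched for abundance, so they do not show more difference among the receptors.

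**Figure D3:**
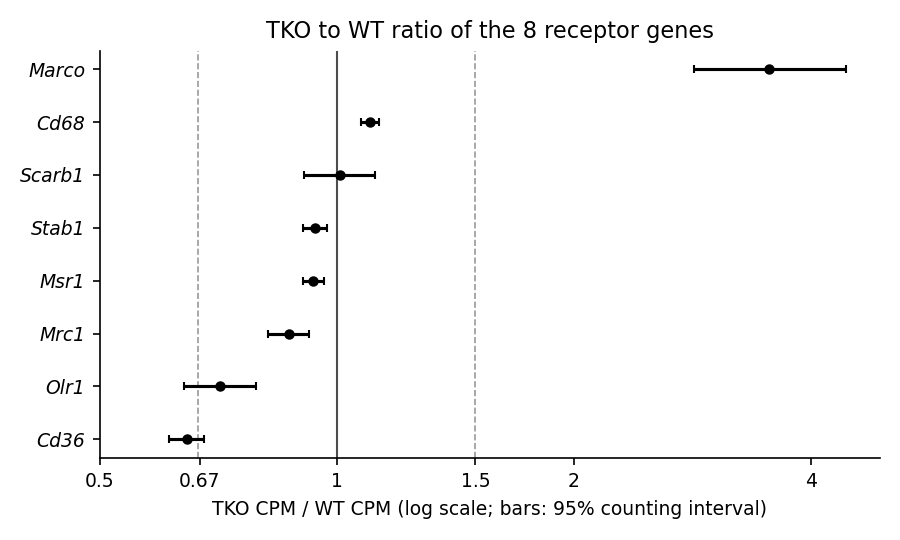
Ratio of TKO to WT CPM (log scale) for the 8 receptor genes, with 95% counting intervals as bars, a solid line at equality and dashed lines at 1.5-fold. Marco (3.54) lies beyond the upper dashed line, Cd36 (0.645) just beyond the lower one, and the Scarb1 interval (0.910 to 1.12) crosses equality.

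**Figure D4:**
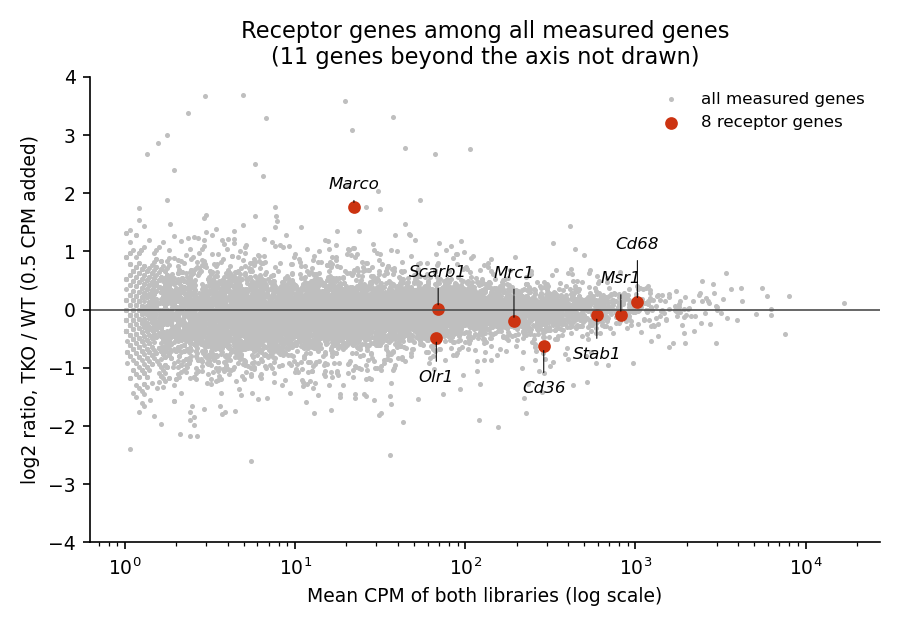
Log2 ratio of TKO to WT (0.5 CPM added) against mean CPM (log scale) for all 11662 measured genes (grey) and the 8 receptor genes (red). Marco, at 1.77, lies at the edge of the cloud at its abundance, and 11 genes beyond 4 on either side are not drawn.

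Other receptors with scavenger function or related protein folds were listed as well. Of 22 genes 16 were measured, 1 was higher and 1 lower, beside 2.98% and 5.6% of all measured genes, and 14 did not meet the rule, with a median log2 ratio of 0.01. Ly75, a relative of the mannose receptor also known as DEC-205, had 61 and 94 counts and was 1.53-fold higher (1.10 to 2.15). Mrc2, the collagen-binding relative, had 43 and 18 counts and was 2.40-fold lower (1.36 to 4.43). Ly75 and Mrc2, named because they met the rule, thus lay on both sides of Mrc1, at low counts. Another relative, Pla2r1, had 16 counts in each library (ratio 0.993, 0.465 to 2.12). Among genes chosen after their values were seen, the haemoglobin receptor gene Cd163 had 43 and 57 counts, a difference within counting error (ratio 1.32, 0.871 to 2.00). Lamp1, a relative of Cd68, was 1.16-fold higher (1.14 to 1.19), and the multiligand receptor gene Lrp1 had 22180 and 22693 counts (ratio 1.02, 0.998 to 1.04).

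Of 19 genes that handle lipoproteins and their lipid cargo 18 were measured. Among these 1 was higher and 1 lower, beside 2.98% and 5.6% of all measured genes. The other 16 met neither side of the rule, and the list had a median log2 ratio of −0.07. Lpl, which encodes the lipase that frees fatty acids from lipoproteins, had 20582 and 13282 counts. It was 1.56-fold lower (1.53 to 1.59), close to the ratio of the fatty acid receptor gene Cd36. Mylip, which encodes a ligase that degrades the LDL receptor, had 280 and 480 counts and was 1.70-fold higher (1.47 to 1.98). Among the 16 partner and adaptor genes, the caveolar coat gene Cav1 had 4568 and 2465 counts and was 1.87-fold lower (1.78 to 1.96). Lyn, a Src-family kinase gene, had 2820 and 4563 counts and was 1.61-fold higher (1.53 to 1.69). That is 1 higher and 1 lower of 16, beside 2.98% and 5.6% of all measured genes. The other 14 did not meet the rule, and the list had a median of −0.06.

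Of 23 transcription factor genes that act on scavenger receptor or lipid genes, 22 were measured. Among these 1 was higher, 2 were lower and 19 met neither side of the rule, beside 2.98% and 5.6% of all measured genes, with a median log2 ratio of 0.06. Pparg, which encodes the fatty acid-sensing nuclear receptor known to activate Cd36, had 65 and 35 counts and was 1.87-fold lower (1.22 to 2.91). Nr1h3, which encodes the oxysterol receptor LXRα, had 132 and 243 counts and was 1.83-fold higher (1.47 to 2.28). Fos, which encodes an AP-1 subunit, had 191 and 60 counts and was 3.20-fold lower (2.39 to 4.36). These are values of the same 2 libraries set side by side, and no relation between any of these genes and a receptor was tested. For uptake of dying cells and particles, 0 of 22 measured genes met the rule, beside 2.98% higher and 5.6% lower of all measured genes. The 22 log2 ratios ran from −0.83 to 0.54, with a median of −0.08.

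**Figure D5:**
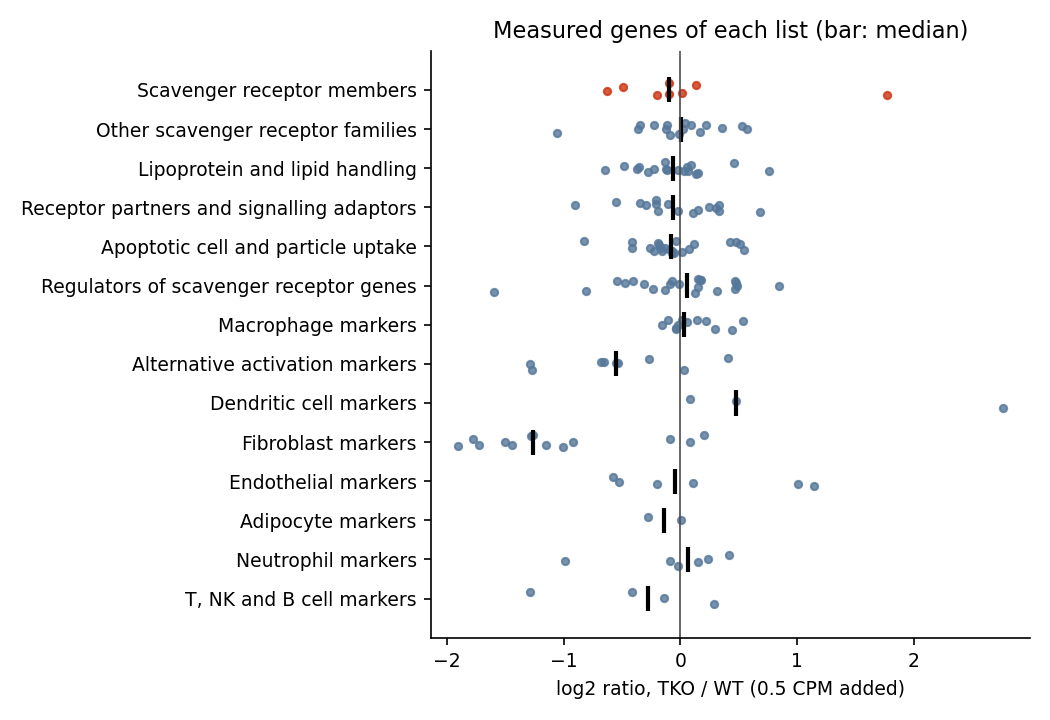
Log2 ratios of TKO to WT (0.5 CPM added) for the measured genes of the receptor set (red) and of 13 other lists (blue), 1 point per gene, with a bar at each median. The receptor genes spread from −0.63 to 1.77 around a median of −0.10, and the fibroblast markers have the lowest median, −1.27.

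Several receptors are also made by other cells, and in RNA from a whole culture fewer cells of a type cannot be told apart from less RNA per cell. The sums below cover each whole list, including genes under the abundance limit. Of 15 fibroblast markers 13 were measured. Among these 10 were lower in TKO, as Cd36 was, and 0 higher, beside 5.6% and 2.98% of all measured genes. The 15 markers summed to 571 CPM in WT and 237 in TKO. The fibrillar collagen gene Col1a1, with 2055 and 550 counts, was 3.76-fold lower (3.42 to 4.14), and Col3a1, Postn, Col6a1 and Dcn, which encode other matrix proteins, were 3.64-, 3.45-, 2.93- and 2.85-fold lower. The surface markers Pdgfrb (478 and 510 counts), Thy1 (33 and 39) and Pdgfra (32 and 30) did not meet the rule, and their intervals included equality. Endothelial markers (6 of 12 measured) summed to 158 and 237 CPM. Vwf, the von Willebrand factor gene, had 468 and 1052 counts and the VEGF receptor gene Kdr 281 and 576. Both were counted as higher, 2 of the 6 beside 2.98% of all measured genes. Cdh5 (50 and 32 counts) and Pecam1 (43 and 37), which define the lineage, and Flt1 (174 and 120), another VEGF receptor gene, had lower counts in TKO and did not meet the rule. Of 8 adipocyte markers 5, Adipoq, Lep, Plin1, Cidec and Retn, were not among the genes analysed, and 2 were measured. Those 2 were Adipor2 (848 and 856 counts) and Fabp4 (436 and 362), which is also in the list of lipid-handling genes. The adipocyte list summed to 119 and 113 CPM, nearly all of it from these 2 genes. The part of these cells in the Cd36 difference was not tested.

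Beside Marco, dendritic cell markers summed to 38.5 CPM in WT and 201 in TKO. Most of that sum was Itgax, the CD11c integrin gene, with 291 and 2019 counts and a 6.89-fold higher value (6.09 to 7.82), and only 3 of the 9 markers were measured. Xcr1 (84 and 90 counts) and Ccr7 (17 and 26) were the other measured markers, and their intervals included equality. The lineage genes Flt3 (9 and 11 counts) and Zbtb46 (5 and 12) were below the abundance limit, and Clec9a had 0 and 2. Neutrophil markers (6 of 11 measured) summed to 37.8 and 40.0 CPM, led by Cxcr2 with 190 and 226 counts, and Ly6g had 0 and 1. S100a9 had 21 and 8 counts and was 2.64-fold lower (1.12 to 6.90). That is 1 lower and 0 higher of the 6 measured, beside 5.6% and 2.98% of all measured genes. S100a8 had 12 and 14 counts and Mpo 12 and 18. Log2 ratios were above 0 for 3 of the 6 measured neutrophil markers and below 0 for 3. T, NK and B cell markers (4 of 14 measured) summed to 13.3 and 10.3 CPM, led by Cd3d with 53 and 48 counts. Lck had 32 and 10 counts and was 3.22-fold lower (1.55 to 7.35). That is 1 lower and 0 higher of the 4 measured, beside 5.6% and 2.98% of all measured genes. Of the 4 measured, Cd8a (12 and 16 counts) had a log2 ratio above 0 and 3 were below 0. The part of other cells in the Marco difference was not tested.

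Mrc1 is commonly read as a marker of alternative activation, and it was compared with 13 other markers of that state. Of these 9 were measured, with a median log2 ratio of −0.55. Among the 9, 2 were lower and 0 higher, beside 5.6% and 2.98% of all measured genes. The IL-4 receptor gene Il4ra was 2.44-fold lower (2.30 to 2.60) and the fibronectin gene Fn1 2.42-fold lower (2.23 to 2.64). The Mrc1 difference, 1.15-fold, was smaller than either of these. Arg1, which encodes arginase 1, had 10 and 2 counts and was below the abundance limit, and Clec10a, a lectin gene, had 19 and 15 (named with their values known). Log2 ratios were below 0 for 7 of the 9 measured markers and above 0 for 2. Those 2 were the chemokine genes Ccl22 (1474 and 1521 counts) and Ccl17 (60 and 82), and their intervals included equality. Fn1 is also made by fibroblasts. Of 13 measured fibroblast markers 10 were lower in TKO and 0 higher, beside 5.6% and 2.98% of all measured genes. The surface markers Pdgfrb, Thy1 and Pdgfra did not meet the rule. The part of fibroblasts in the Fn1 difference was not tested.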

How the data were processed

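Polyadenylated RNA was sequenced from 1 WT and 1 TKO library. Per the submitters' processing notes, the tools were RSEM 1.2.12, HISAT2 2.0.4 and Bowtie2 2.2.5 and the build was mm10, with no role stated for any tool. Annotation and strand setting are not given in the sources used here. Estimated counts were deposited by the authors and rounded here. They also deposited FPKM values (0.01 stands for 0) and their log2 ratio of FPKM, per the file headers. The authors' deposited p-value and adjusted value were not recomputed, and the latter is treated as a score because it exceeds 1. Of 16219 entries, 1 without a symbol was left out (9.29e-06% of WT and 9.23e-06% of TKO counts), and 23 symbols turned into dates were restored by gene identifier from RefSeq.

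Ratios, intervals and lists were computed in Python 3.11.15 with scipy 1.17.1, and scaling factors with edgeR 4.0.16 (TMM) and DESeq2 1.42.0. Interval code was tested on simulated data. Coordinates and UTRs came from GENCODE M21, on which 11574 of the 11662 measured genes were placed, and microRNAs from RefSeq, with all 13 matched. Members and lists were chosen with earlier results of these data known. Named genes were the 8 members, up to 5 genes per list and direction that met the 1.5-fold rule, and the most abundant gene of each cell type list. Nearest neighbours on the chromosome and the 3 genes nearest in value to Marco and to Cd36 were named as well. Other genes of the lists, lineage-defining markers among them, were named with their values known.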

Additional observations from a re-analysis of the deposited data

How the results depend on the processing

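The log2 ratios of the 8 genes kept their sign under all 9 alternatives (other scaling, unit, addition, abundance filter, call or unrounded counts), and 69 of 72 values stayed within the counting interval of the ratio. The abundance filters and the 2-fold call cannot change a gene's own ratio, so their part of the 72 was fixed in advance. Unrounded counts changed a ratio only in its last digits. Only scaling, unit and addition could move a ratio. Marco ranged from 1.72 to 1.82. With TMM scaling Msr1 was at −0.0504, Cd68 at 0.19, and 0 receptor genes were 1.5-fold lower, because Cd36 came to 1.4997-fold. With the authors' FPKM, Msr1 was at −0.0106, and the cause was not tested. At 2-fold, 1 receptor gene was higher and 0 lower, and 150 genes of all measured were higher and 275 lower, against 347 and 653 at 1.5-fold. At a mean of at least 10 CPM 172 were higher and 257 lower, since fewer genes were tested. TMM moved the median of all measured genes from −0.04 to 0.00. Medians of the regulator, endothelial and adipocyte lists changed sign under at least 1 alternative and their signs are not read. Depth limits low genes: a count of 0 allows up to 3 counts, 0.279 CPM in WT and 0.277 in TKO. No paired analysis was possible because each genotype had 1 library.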

Other observations

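The genes beside the receptors on their chromosomes were examined as well, as the nearest measured gene on each side. Of 16 neighbours 1 was 1.5-fold higher and 0 were lower, beside 2.98% and 5.6% of all measured genes. The exception was Micu3, a mitochondrial calcium uptake gene 664784 bases from Msr1, with 65 and 107 counts and 1.64-fold higher (1.19 to 2.26). Neither of Marco's neighbours met the 1.5-fold rule. By library totals, the metalloreductase gene Steap3 was 1.23-fold lower (1.04 to 1.44) and the sterol-sensing gene Insig2 1.26-fold lower (1.01 to 1.56). They lie far from Marco, at 201832 and 799328 bases. On the sides of Cd36, the semaphorin gene Sema3c, at 51421 bases, had 91 and 64 counts and was 1.43-fold lower (1.03 to 2.00). Magi2, at 1338234 bases, had 12 and 15 counts. Clec7a, which encodes the glucan receptor dectin-1 and lies 12464 bases from Olr1, had 658 and 715 counts, a ratio of 1.08 whose interval included equality.

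The 3 genes nearest to Marco in both libraries, by distance between log2 CPM values over 2 libraries, were Trem1, Nabp1 and 2210039B01Rik. Trem1, a receptor that amplifies myeloid inflammation, had 124 and 437 counts and was 3.50-fold higher (2.86 to 4.31), at a distance of 0.329. Nabp1 had 105 and 278 counts and 2210039B01Rik 142 and 372. Those nearest to Cd36 were Cyth4 (3825 and 2308 counts), Plp2 (3560 and 2575) and B4galt5 (3638 and 2642), at distances of 0.0906 to 0.120.

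Msr1 was the receptor whose ratio depended most on the unit. Its CPM ratio was 0.934 and its FPKM ratio 0.993, a gap of 0.09 on the log2 scale that 1.97% of measured genes reached. The authors' gene lengths need not be whole numbers, 2094.05 bases for Msr1, and 2 of its annotated transcripts end in different 3' UTRs of 47 and 2518 bases. The cause of the gap was not tested.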
